A study of Mus musculus with 3 samples.

Results

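The genes described here are those of Wnt signalling, taken as every probe whose platform gene symbol is a numbered Wnt, Fzd, Sfrp or Dkk gene or is on a fixed list of 19 co-receptors, regulators and transcription factors. The rule found 74 of 25697 probes, which stand for 52 of 16593 named genes. Axin1 and Tcf7 are named in the rule and have no probe under these symbols. The RNA came from GFP-labelled 4T1 cells, which are mammary carcinoma cells of BALB/c mouse origin, implanted in the mammary pad of female Balb/C mice aged 10 to 12 weeks. Cells were sorted by flow cytometry from lung with metastases (MCC), from the circulation (CCC) and from the primary breast tumour (PCC). All 3 groups carry the same GFP label and come from implanted mice, each group has 1 array, and neither the number of mice behind an array nor the promoter that drives GFP is given in the sources used here. A single array per group leaves no replicate check and no spread to test against, so no p-value was made, and every difference below compares arrays that carry these labels.

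Wnt proteins are secreted, lipid-modified ligands that bind Frizzled receptors and the co-receptors Lrp5 and Lrp6. In the canonical branch, binding recruits Dishevelled and stops a complex of Axin, Apc and Gsk3b from marking beta-catenin for destruction, so that beta-catenin reaches the nucleus and acts with TCF/LEF factors. Sfrp proteins, Wif1 and some Dkk proteins act outside the cell to restrain the pathway, which in the mammary gland is known for its part in budding, branching and tumour formation.

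Levels are log2 intensities after background correction and quantile normalization of the 3 arrays together. A gene counted as detected where its detection p, the chance of so bright a value among the array's negative controls, was under 0.01. Detected probes made up 44.0% of all probes on MCC, 44.6% on CCC and 41.0% on PCC, and the lowest detected log2 intensities were 5.60, 5.54 and 5.88 on these arrays. Where a gene was detected on only 1 array of a pair, its fold is a lower bound against the higher of the lowest detected level on the other array and the gene's own value there.

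Markers of other cells separated the arrays, and the array labelled MCC stood apart. The 9 adipocyte genes with a probe had a summed linear intensity of 31043 on MCC, 378 on CCC and 257 on PCC, with 7, 1 and 0 of them detected. The 10 lymphocyte genes summed to 25587, 3607 and 756 in the same order of arrays, with 10, 9 and 4 detected, and the 10 endothelial genes to 18541, 4123 and 2272, with 9, 9 and 6 detected. Fibroblast genes summed to 23849, 13487 and 11655 over 11 genes. Macrophage genes summed to 10183, 24206 and 4921 over 11 genes, but the list leaned the other way gene by gene on MCC against PCC. Of 10 tested, 2 were at least 2-fold higher, Lyz2 (9.45-fold) and Ms4a7 (2.36-fold), and 3 lower, Adgre1 (3.65-fold), Cd14 (2.27-fold) and Mrc1 (2.15-fold), with a median of -0.36. The 9 neutrophil genes summed to 4521, 2787 and 4205, which hides opposite directions on MCC against PCC. S100a8 was 28.4-fold and S100a9 29.6-fold lower, while Ltf was 51.5-fold higher and Cxcr2 at least 2.42-fold higher. The 7 genes of red blood cells and platelets summed to 7381, 1707 and 1598. Epithelial genes, the markers that a carcinoma line should carry, summed to 10895, 7153 and 7008 over 13 genes, with 12, 4 and 5 detected. The keratin gene Krt8 was at 11.44, 12.24 and 12.27 and Krt18 at 11.25, 10.38 and 10.09, while Krt19, Krt14 and Cldn3 were detected only on MCC. Of 12 epithelial genes tested on MCC against PCC, 7 were at least 2-fold higher, among them Cldn4 (25.6-fold) and Cdh1 (4.32-fold). Only 1 was lower, Tjp1 (3.53-fold). Lung epithelial genes summed to 2719, 1420 and 942 over 11 genes, with 5, 2 and 2 detected. No array detected Sftpc, a gene of alveolar surfactant, or Scgb1a1, a gene of airway secretory cells. Of 5 lung genes tested on MCC against PCC, 4 passed 2-fold upward and 0 downward. The 4 were Abca3 (3.4-fold), Aqp5 (2.77-fold), Cyp2f2 (at least 2.88-fold) and Ager (at least 2.6-fold). Without normalization the upward count fell to 2. The part of these markers' cells in each Wnt pathway result was not tested. Fewer cells of a type and less RNA per cell cannot be told apart in such samples.

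**Figure D1:**
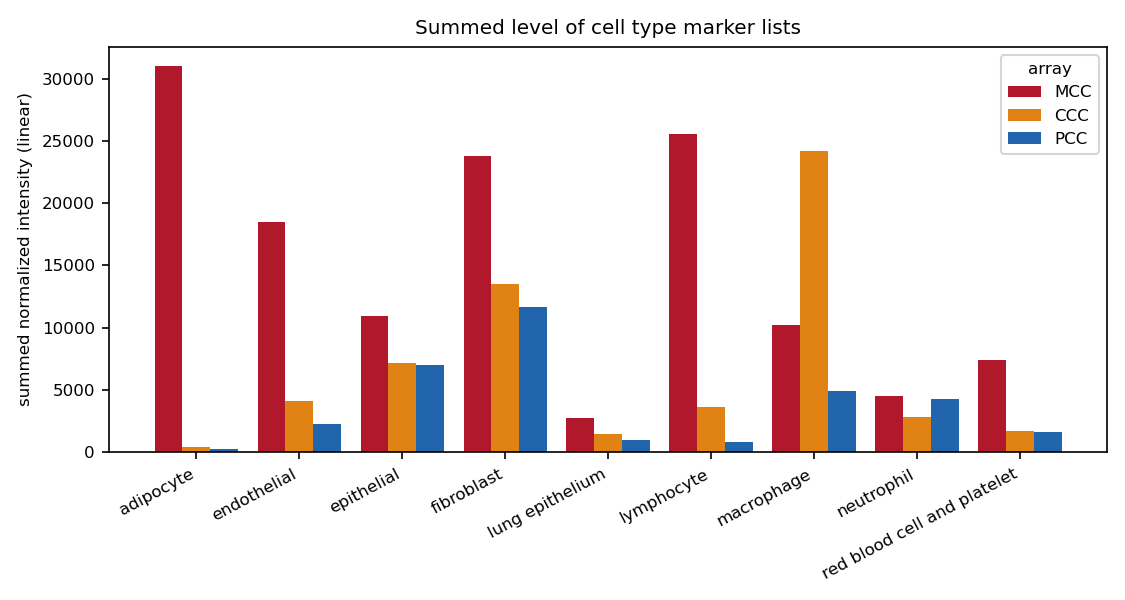
Summed linear intensity after normalization (y axis) of each marker list (x axis) on the arrays MCC, CCC and PCC, 1 bar per array. Adipocyte markers reach 31043 on MCC against 257 on PCC, and macrophage markers are highest on CCC, at 24206.

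Of the 52 Wnt pathway genes, 25 were detected on at least 1 array, 23 on MCC, 20 on CCC and 17 on PCC. All 3 arrays detected 15 of them, and 5 were detected only on MCC. These 5 were the ligands Wnt4, Wnt5a and Wnt5b, the receptor Fzd10 and the transcription factor Lef1. No Wnt pathway gene was detected only on CCC or only on PCC. The share of all genes detected on 1 array alone was not counted, so whether 5 is many for MCC is not known. The other 27 genes were detected on no array, with detection p between 0.0113 and 0.94. They were the ligands Wnt1, Wnt2, Wnt2b, Wnt3, Wnt3a, Wnt7a, Wnt8a, Wnt8b, Wnt9a, Wnt9b, Wnt11 and Wnt16, the receptors Fzd1, Fzd3, Fzd4 and Fzd8, the co-receptor Lrp6, the secreted inhibitors Dkk1, Dkk2, Dkk4, Sfrp4 and Sfrp5, Dvl2 and Dvl3, the R-spondin receptor Lgr5, and the ubiquitin ligases Rnf43 and Znrf3, which remove Frizzled from the cell surface. Fzd4 lay closest to detection, whose brighter probe had a detection p of 0.0113 on MCC and 0.0288 on both CCC and PCC. An undetected probe sets no level of 0, since it may also be a weak probe.

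Promoter letters are shown because the pathway genes differed in direction. Promoters from RefSeq's table (GRCm38.p6) were searched for 15 of the 25 detected genes. The other detected genes were left out of the search, whether or not the table holds them. The 250 bases before the start are printed 5′ to 3′ for Wnt6 and Wnt10b, which were lower on MCC, and for Wnt4 and Axin2, which were higher there. Capitals mark GGGCGG or its reverse complement CCGCCC, the core of a GC box.
Wnt6, chr1:74771642-74771891, plus strand: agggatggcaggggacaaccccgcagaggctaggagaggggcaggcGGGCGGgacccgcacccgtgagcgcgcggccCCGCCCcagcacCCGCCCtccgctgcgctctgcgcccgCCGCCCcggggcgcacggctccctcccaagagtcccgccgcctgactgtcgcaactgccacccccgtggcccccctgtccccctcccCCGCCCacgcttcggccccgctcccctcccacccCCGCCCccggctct
Wnt10b, chr15:98778151-98778400, minus strand: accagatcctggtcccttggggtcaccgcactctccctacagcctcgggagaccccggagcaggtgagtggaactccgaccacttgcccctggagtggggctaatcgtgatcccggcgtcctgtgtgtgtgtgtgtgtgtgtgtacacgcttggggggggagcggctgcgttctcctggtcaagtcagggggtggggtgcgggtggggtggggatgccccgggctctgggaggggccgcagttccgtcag
Wnt4, chr4:137277385-137277634, plus strand: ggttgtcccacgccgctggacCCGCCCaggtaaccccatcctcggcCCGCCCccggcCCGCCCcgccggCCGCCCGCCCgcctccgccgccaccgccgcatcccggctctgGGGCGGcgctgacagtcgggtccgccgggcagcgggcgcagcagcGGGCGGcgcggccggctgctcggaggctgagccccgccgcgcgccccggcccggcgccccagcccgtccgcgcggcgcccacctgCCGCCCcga
Axin2, chr11:108920099-108920348, plus strand: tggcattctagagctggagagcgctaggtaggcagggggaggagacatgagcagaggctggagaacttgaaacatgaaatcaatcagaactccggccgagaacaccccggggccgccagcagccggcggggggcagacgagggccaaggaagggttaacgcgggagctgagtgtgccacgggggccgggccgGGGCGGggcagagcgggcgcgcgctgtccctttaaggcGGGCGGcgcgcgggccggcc
Matches overlapped in 1 place, in Wnt4. The Wnt6 stretch held 6 matches, that of Wnt4 8, that of Axin2 2 and that of Wnt10b 0. Among the 15 detected genes searched, 12 held this motif, against 32.7% of all 32851 promoters, and genes with several listed starts have more chances to hold one. The letters CTTTGA, part of the TCF/LEF binding motif, stood in Gsk3b, Lef1 and Wnt5b on either strand, that is in 3 of 15, against 13.8% of all promoters. They were absent from these 4 stretches, and so were CTTTGT and its reverse complement.

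The ligands split into a set that was high on PCC and low on MCC, and a set seen only on MCC. Wnt7b, a ligand needed for lung growth in mouse embryos, was at a log2 intensity of 6.74 on MCC, 11.35 on CCC and 12.10 on PCC. It was 41.1-fold lower on MCC than on PCC, and only 8 genes on the array had a lower difference. A second Wnt7b probe read 4.83, 8.47 and 9.67 and was not detected on MCC (detection p 0.14), which bounds its log2 difference at -4.07. Both probes thus ran in the same direction, with CCC between the other arrays and nearer to PCC.

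Wnt10a, which acts in skin and tooth formation, was at 6.38 on MCC, 9.05 on CCC and 9.36 on PCC. It was 7.84-fold lower on MCC than on PCC and 1.24-fold lower on CCC than on PCC. Wnt6, known for promoting epithelial organisation of embryonic mesoderm, was not detected on MCC (5.04), and was at 6.62 on CCC and 7.94 on PCC. It was at least 5.08-fold lower on MCC and 2.50-fold lower on CCC, both against PCC. Wnt6 and Wnt10a are neighbouring protein-coding genes on mouse chromosome 1, and both were lower on MCC, but Wnt10a stayed close to PCC on the circulating array while Wnt6 did not.

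Wnt10b, a ligand of the early mammary bud that restrains fat cell formation in mice, was not detected on MCC (4.38), and was at 6.53 on CCC and 8.56 on PCC. It was at least 7.79-fold lower on MCC than on PCC. On CCC it was 4.08-fold lower than on PCC, the largest difference of any Wnt pathway gene in that pair, and 18 genes of the array were lower. The adipocyte markers were higher on MCC, and so were the lymphocyte and endothelial markers. A link between any of these markers and the Wnt10b values was not tested. Wnt1, its neighbour on chromosome 15, was not detected on any array.

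The ligands seen only on MCC were dim. Wnt4, a progesterone-regulated ligand of mammary branching, was at 6.70 on MCC, against 4.49 on CCC and 4.74 on PCC, both undetected. Its fold was at least 1.77 over PCC and at least 2.23 over CCC. Wnt5a, the best known ligand of the beta-catenin-independent branch, was at 6.47 on MCC, 5.49 on CCC and 4.74 on PCC. On CCC it narrowly missed detection (detection p 0.015). Wnt5b, its close relative, was at 6.25, 4.89 and 4.90. The bounds over PCC were 1.51-fold for Wnt5a and 1.29-fold for Wnt5b, so neither passed 2-fold. The second probes of Wnt4 and Wnt5a missed detection on MCC, with detection p of 0.0138 and 0.0313.

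**Figure D2:**
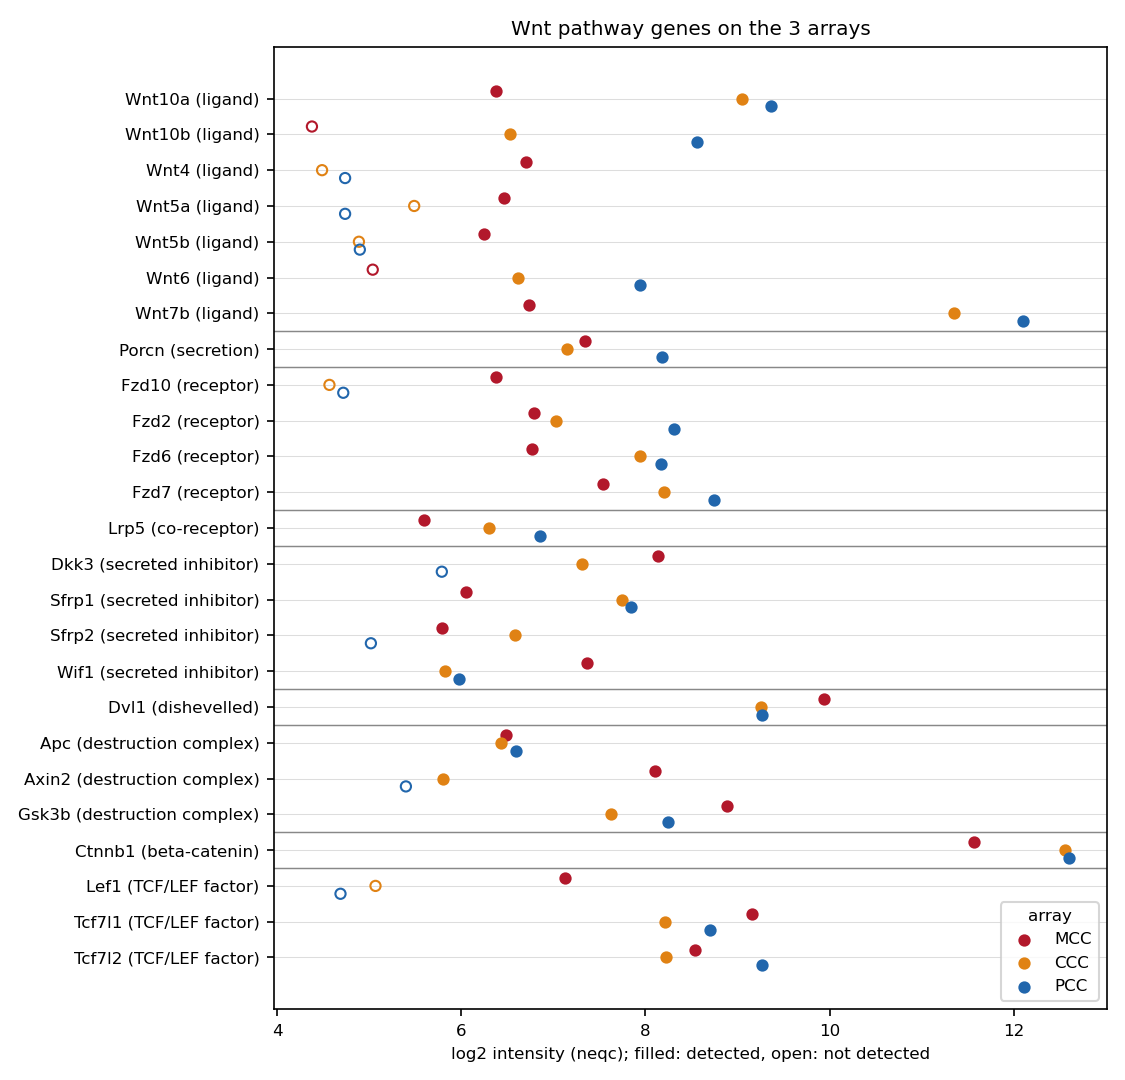
Log2 intensity (x axis) of the 25 detected Wnt pathway genes, grouped by role (y axis), on MCC, CCC and PCC. Filled points are detected and open points are not. Wnt7b is at 6.74 on MCC against 12.10 on PCC, while Lef1 is detected on MCC alone.

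Porcn, the enzyme that attaches the lipid to Wnt proteins, was at 7.34 on MCC, 7.15 on CCC and 8.18 on PCC. It was 1.80-fold lower on MCC and 2.05-fold lower on CCC, each against PCC. The value on CCC falls short of 2-fold without a background model, with an offset of 50, without normalization and in the authors' second table (down to -0.77 on the log2 scale). Of the other genes of secretion and extracellular control, 10 have a probe. Of 6 detected on MCC or PCC none was at least 2-fold higher and 4 were lower, with a median of -2.28. Among all genes tested in that pair 18.0% were higher and 19.8% lower. Notum, an esterase that strips the lipid from Wnt proteins, was not detected on MCC (4.51), and was at 9.42 on CCC and 9.90 on PCC, at least 19.8-fold lower on MCC than on PCC. Tpbg, a membrane glycoprotein that restrains canonical signalling in zebrafish, was 15.2-fold lower, at 7.72 on MCC against 11.65 on PCC. Wls, the carrier that brings Wnt proteins to the cell surface, was 7.17-fold lower, at 8.01 on MCC against 10.85 on PCC. The inhibitor Apcdd1, named after its values were seen, was 3.29-fold lower. On CCC against PCC, 0 of 4 tested genes of this list reached 2-fold, beside 10.0% of all genes.

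The Frizzled receptors that PCC detected were all lower on MCC. Fzd2 was at 6.79 on MCC, 7.03 on CCC and 8.31 on PCC, 2.87-fold lower on MCC and 2.43-fold lower on CCC, each against PCC. Fzd6, a receptor of planar polarity in mouse skin, was at 6.77 on MCC, 7.94 on CCC and 8.17 on PCC, 2.63-fold lower on MCC than on PCC. Fzd7 was at 7.54, 8.20 and 8.75 on the same arrays, 2.31-fold lower on MCC than on PCC. These 3 directions held under every scaling tried for MCC against PCC, whereas the small difference of Fzd6 on CCC (-0.23) was 0.02 without normalization.

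Fzd10 went the other way and was dim, at 6.38 on MCC against 4.57 on CCC and 4.72 on PCC, both undetected. The bound over PCC was 1.41-fold, and its other probes were not detected on any array. The co-receptor Lrp5 was at 5.60 on MCC, 6.30 on CCC and 6.86 on PCC, 2.39-fold lower on MCC than on PCC. Its level on MCC is the lowest detected one there, and its log2 difference of -1.25 shrank to -0.86 under other processing. Among R-spondins and receptors outside the rule, 11 have a probe and 4 were detected on MCC or PCC. Of these, 3 were at least 2-fold lower on MCC than on PCC: the receptor Ryk (3.42-fold), the pseudokinase receptor Ptk7 (2.94-fold) and the R-spondin Rspo3 (at least 2.72-fold). Kremen1, a receptor for Dkk proteins, was 2.25-fold higher. Among all genes tested in that pair 18.0% were higher and 19.8% lower. On CCC against PCC, Rspo3 was at least 2.83-fold and Ptk7 2.05-fold lower, and no gene of this list was 2-fold higher. There, 6.34% of all genes were higher and 3.68% lower.

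The secreted inhibitors did not move together. Sfrp1, which binds Wnt proteins outside the cell, was at 6.05 on MCC, 7.75 on CCC and 7.84 on PCC, 3.47-fold lower on MCC than on PCC. Dkk3, a divergent Dkk family member, was at 8.14 on MCC and 7.31 on CCC, and undetected on PCC (5.79, detection p 0.015). It was at least 4.78-fold higher on MCC and at least 2.70-fold higher on CCC, each against PCC. A second Dkk3 probe gave bounds of 1.88 and 1.22 on the log2 scale for these pairs, and the third was not detected on any array.

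Wif1, which binds Wnt proteins directly, was at 7.37 on MCC, 5.82 on CCC and 5.98 on PCC, 2.61-fold higher on MCC than on PCC. Its level on PCC was close to the lowest detected one, so the size is uncertain. Sfrp2 was at 5.79 on MCC and 6.58 on CCC and undetected on PCC (5.02). It was at least 1.63-fold higher on CCC than on PCC and has no bound for MCC, whose level lay below the lowest detected one on PCC. Fibroblasts are known to make Sfrp2 and Dkk3. On CCC, where Sfrp2 was highest, 6 of 10 tested fibroblast markers were at least 2-fold higher than on PCC and 0 lower, among them Col3a1 (6.99-fold). So were 9 of 11 macrophage and 6 of 9 lymphocyte markers, with 0 lower in either list. Of all genes tested in that pair, 6.34% were higher and 3.68% lower. On MCC, where Dkk3 was highest, 5 of 10 fibroblast markers were at least 2-fold higher than on PCC and 1 lower, Pdgfra (6.68-fold lower). Of the fibroblast list only Postn was undetected everywhere. The part of these markers in the inhibitors' values was not tested.

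**Figure D3:**
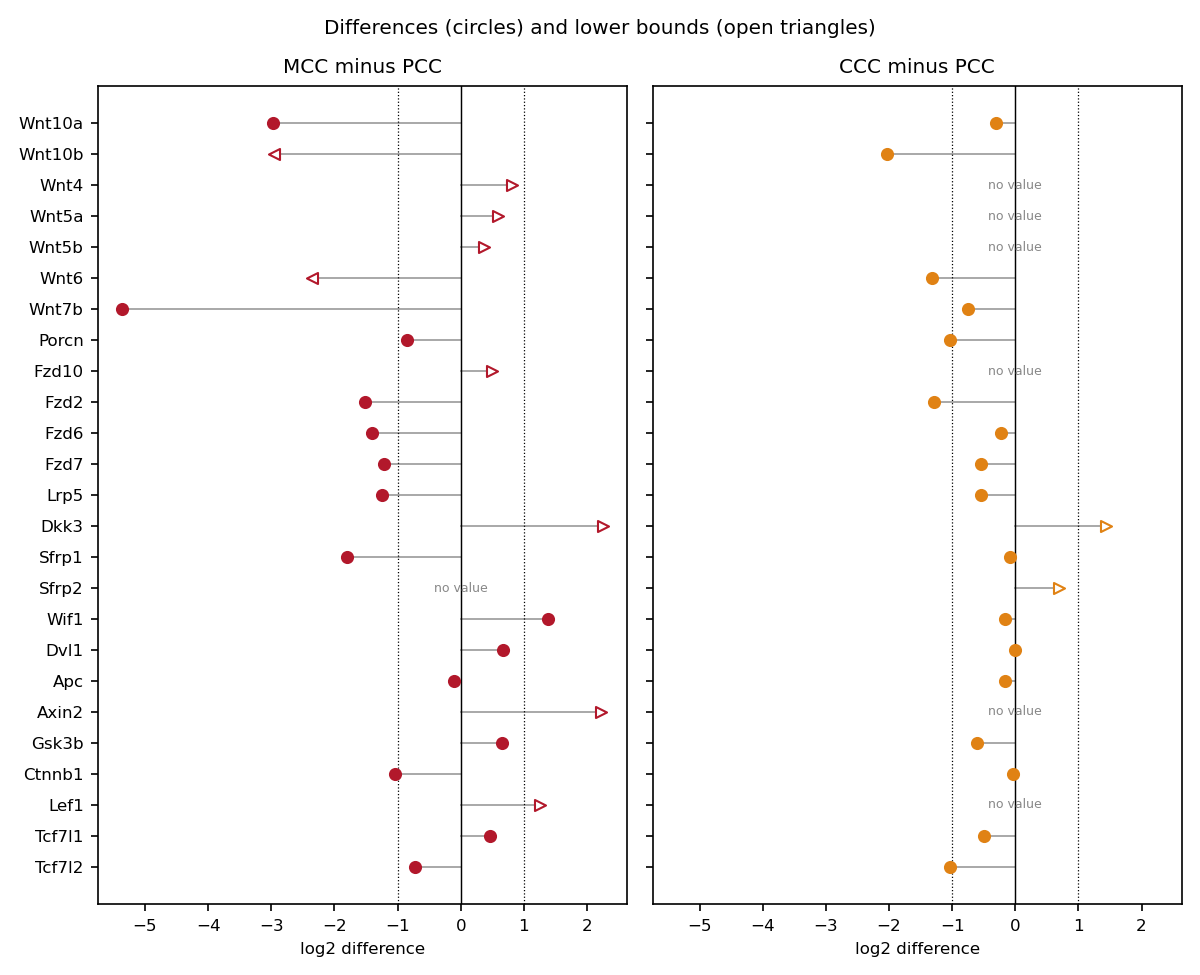
Log2 difference (x axis) of each detected Wnt pathway gene (y axis) for MCC minus PCC (left) and CCC minus PCC (right). Circles are differences, open triangles are lower bounds of size, and dotted lines mark 2-fold. The differences reach -5.36 for Wnt7b on the left and -2.03 for Wnt10b on the right.

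Among the genes that act inside the cell, Dvl1, Gsk3b and Apc stayed within 2-fold on MCC against PCC, while Ctnnb1, Axin2 and Lef1 passed it. Dvl1, a Dishevelled protein that relays the receptor signal, was at 9.94 on MCC, 9.26 on CCC and 9.27 on PCC, 1.59-fold higher on MCC than on PCC, but its log2 difference was -0.12 without normalization. Gsk3b, the kinase of the destruction complex, was at 8.89 on MCC, 7.63 on CCC and 8.24 on PCC, and none of its differences against PCC reached 2-fold. Apc, the scaffold of that complex, was at 6.49, 6.43 and 6.60, and the sign of its small difference on MCC against PCC (-0.11) turned under 75th percentile scaling (0.18) and in the authors' second table (0.01). Beta-catenin itself (Ctnnb1) was bright, at 11.57 on MCC, 12.56 on CCC and 12.60 on PCC. It was 2.05-fold lower on MCC than on PCC, and its second probe gave a log2 difference of -1.66. On CCC against PCC the brighter probe differed by -0.04 (0.08 without normalization) and the other by -0.68.

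Axin2, a scaffold of the destruction complex whose gene is itself a standard target of beta-catenin, was at 8.10 on MCC, 5.80 on CCC and undetected on PCC (5.40, detection p 0.0439). It was at least 4.65-fold higher on MCC than on PCC and 4.90-fold higher on MCC than on CCC. Lef1, a transcription factor that pairs with beta-catenin, was at 7.13 on MCC, against 5.07 on CCC and 4.69 on PCC, both undetected, at least 2.37-fold higher on MCC than on PCC. The bound for Lef1 fell short of 2-fold without a background model, with an offset of 50 and without normalization. It was lowest with the offset of 50, at 0.90 on the log2 scale. Its second probe missed detection on MCC (detection p 0.0251).

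Lef1 is also a gene of T cells, and all 10 lymphocyte markers with a probe were at least 2-fold higher on MCC than on PCC, with Cd3d at 12.38 on MCC, 9.59 on CCC and 6.03 on PCC. All 10 were detected on MCC, and 4 on PCC. On CCC, 9 of the 10 lymphocyte markers were detected, and Lef1 was not (detection p 0.0739). These markers were also lower there than on MCC, with a median log2 difference of 2.79 for MCC minus CCC. The part of lymphocyte RNA in the Lef1 and Axin2 values was not tested.

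The other TCF factors differed less. Tcf7l1, which mostly represses targets, was at 9.16 on MCC, 8.21 on CCC and 8.70 on PCC, 1.38-fold higher on MCC than on PCC but its log2 difference was -0.22 without normalization. Tcf7l2 was at 8.54 on MCC, 8.22 on CCC and 9.27 on PCC, 1.65-fold lower on MCC and 2.06-fold lower on CCC, each against PCC. A second Tcf7l2 probe gave log2 differences of -0.97 and -0.93 for these pairs. The 2-fold size on CCC was missed under 5 of 9 other settings, where the difference was as small as -0.86.

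Over the pathway as a whole, 4 of 25 genes detected on MCC or PCC were at least 2-fold higher on MCC and 10 were lower, counting bounds. Of all 8862 genes tested in that pair, 18.0% passed 2-fold upward and 19.8% downward, or 37.8% together, against 56.0% of the pathway genes. The pathway median was -0.42, beside -0.09 for all genes, but it was 0.18 under 75th percentile scaling and 0.02 with no filter on detection, so it has no stable sign. The higher genes were Dkk3, Axin2, Wif1 and Lef1. The lower ones were the 4 ligands, the 3 receptors, Lrp5, Sfrp1 and Ctnnb1. Within the secreted inhibitors Dkk3 and Wif1 were higher and Sfrp1 lower. With the main processing the ligands past 2-fold were all lower. Under 75th percentile scaling the bound for Wnt4 passed 2-fold upward (1.11 on the log2 scale). At detection p under 0.05 Wnt4 (1.37) and Wnt5a (1.14) passed it. With no filter on detection Wnt4 (1.96), Wnt5a (1.73) and Wnt5b (1.35) did.

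On CCC against PCC, 1 of 20 genes was at least 2-fold higher, Dkk3, and 5 were lower, Wnt10b, Wnt6, Fzd2, Tcf7l2 and Porcn. Among all 8267 genes tested in that pair 6.34% were higher and 3.68% lower, or 10.0% together, against 30.0% of the pathway genes. The pathway median was -0.49, beside -0.08 for all genes. Without normalization the split was 2 higher and 3 lower, or 40.0% higher against 16.7% here, and the median of all genes was 0.15. With background handled otherwise (no model, or an offset of 50), 3 rather than 5 genes were lower, so Porcn and Tcf7l2 stand close to the threshold, while Wnt10b, Wnt6, Fzd2 and Dkk3 passed it under each setting that gave them a value. Macrophage markers were higher on CCC beside them, with 9 of 11 at least 2-fold higher and 0 lower, and their part was not tested.

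On MCC against CCC, 5 of 25 genes passed 2-fold upward and 5 downward, beside 18.2% and 16.4% of 8957 genes (34.6% together, against 40.0%). Axin2, Lef1, Wif1, Gsk3b and Wnt4 were higher, and Wnt7b (24.4-fold), Wnt10a (6.33-fold), Sfrp1 (3.25-fold), Fzd6 (2.25-fold) and Wnt6 (at least 2.03-fold) were lower. Of these 10, Axin2, Wnt7b, Wnt10a and Sfrp1 passed 2-fold under every setting that gave them a value. The split was unstable, with 61.5% higher under 75th percentile scaling and 9.09% without normalization, where the median of all genes was -0.76. The 3 pairs share arrays, so they are not independent of each other. The level on CCC lay between those on MCC and PCC for 14 of 25 pathway genes, near the 52.2% of all genes, and was nearer to PCC than to MCC for 19 of 25, near the 72.0% of all genes.

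**Figure D4:**
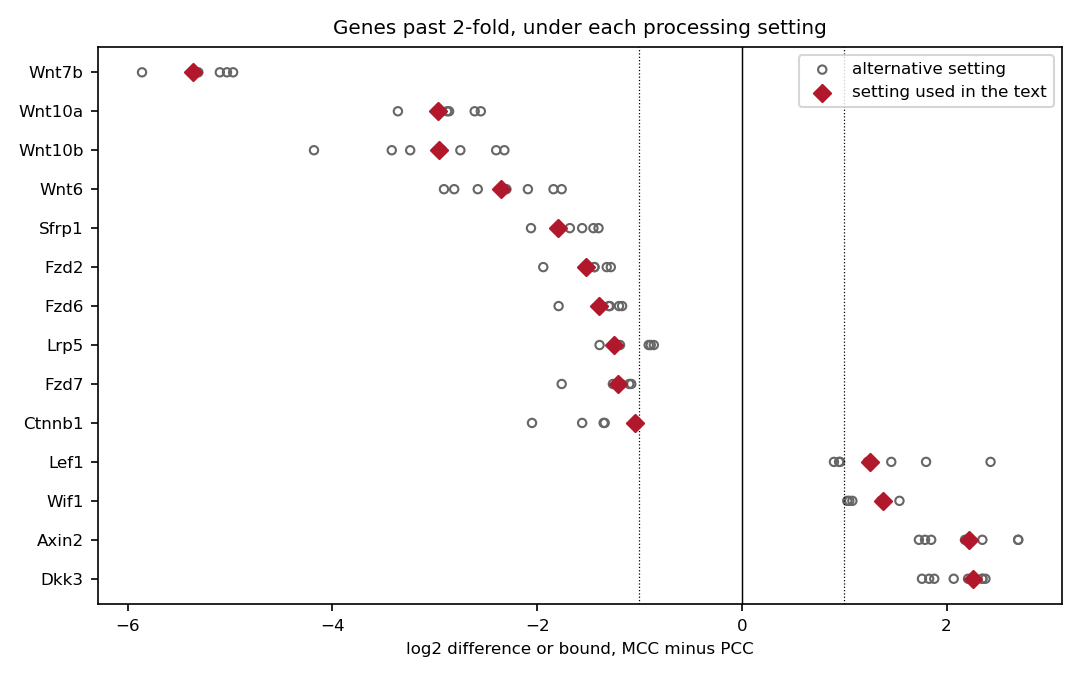
Log2 difference or bound for MCC minus PCC (x axis) of the 14 Wnt pathway genes past 2-fold (y axis). Diamonds are the values in the text, circles the alternative processing settings, and dotted lines mark 2-fold. Only Lrp5 and Lef1 have circles inside the dotted lines.

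Genes that beta-catenin is known to switch on were examined as a list outside the rule, of which 36 of 40 have a probe. Of 20 detected on MCC or PCC, 5 were at least 2-fold higher on MCC and 11 lower, with a median of -1.22. Of all genes tested in that pair, 18.0% were higher and 19.8% lower. The targets leaned the same way under 75th percentile scaling (6 and 11) and without normalization (3 and 13). The transcription factor Sox9 was at 6.14 on MCC against 10.26 on PCC, 17.4-fold lower. The matricellular gene Ccn4 was 10.3-fold lower, and cyclin D1 (Ccnd1) was at 10.61 on MCC against 13.76 on PCC, 8.89-fold lower. Cyclin D2 (Ccnd2) went the other way, at 11.17 on MCC against 7.00 on PCC, 18.1-fold higher, followed by Id2 (3.46-fold) and Ets2 (3.33-fold). The target gene Axin2, given above, was on the higher side as well, so the targets did not share a direction.

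On CCC against PCC, 3 of 20 targets were at least 2-fold higher, Id2 (3.52-fold), Ccnd2 (3.16-fold) and Twist1 (2.45-fold), and 3 lower, Sox9 (2.39-fold), Myc (2.26-fold) and Ccn1 (2.18-fold). On MCC against CCC, 4 of 21 were higher, led by Ccnd2 (5.71-fold), Bmp4 (at least 2.72-fold) and Ets2 (2.05-fold), and 9 lower, led by Gja1 (7.30-fold), Sox9 (7.27-fold) and Ccnd1 (7.18-fold). Of all genes tested, 6.34% were higher and 3.68% lower on CCC against PCC. On MCC against CCC these shares were 18.2% and 16.4%. Many of the listed target genes answer to other pathways too.

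**Figure D5:**
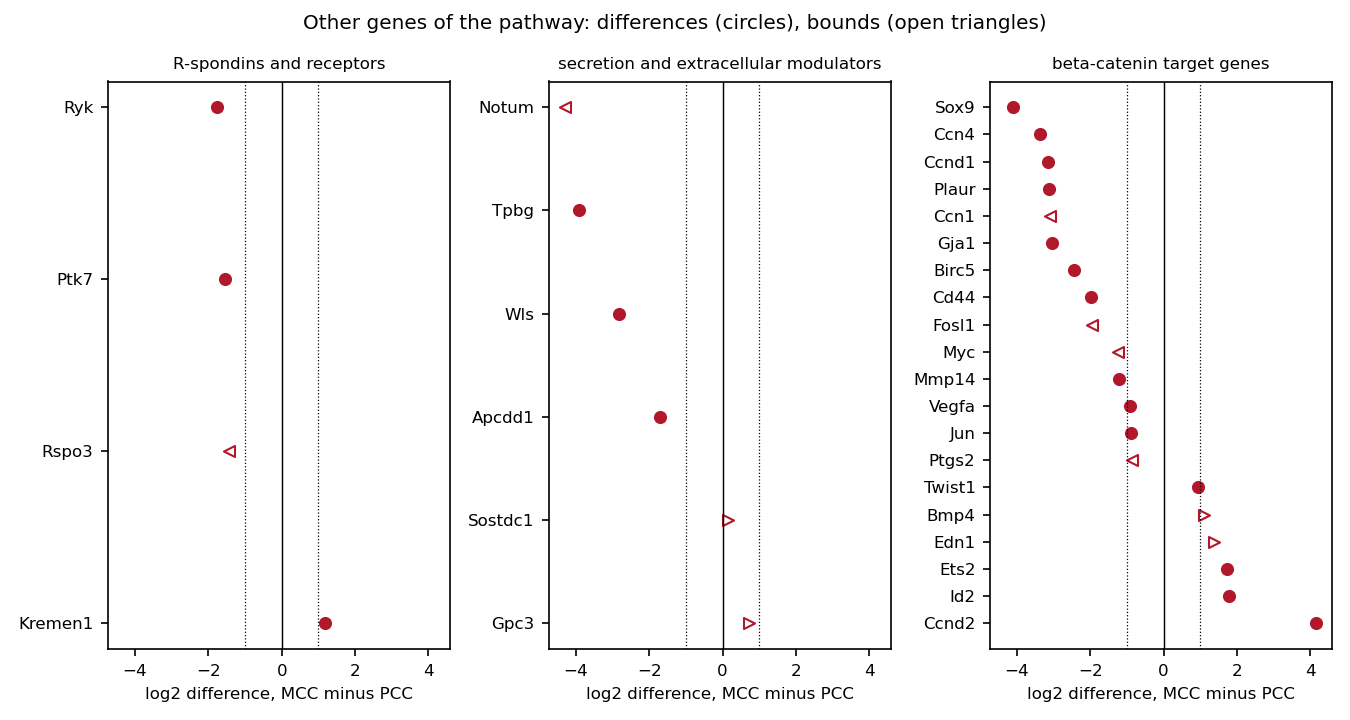
Log2 difference for MCC minus PCC (x axis) of genes outside the membership rule (y axis), for R-spondins and receptors (left), secretion and extracellular modulators (middle) and targets of beta-catenin (right). Circles are differences and open triangles lower bounds of size. Notum reaches at least -4.31 and Sox9 -4.12, while Ccnd2 reaches 4.17.

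The remaining pathway lists were mixed. On MCC against PCC they stand beside 18.0% of all genes higher and 19.8% lower, or 37.8% together. Of 14 cytoplasmic regulators tested on MCC against PCC 2 were at least 2-fold higher, Wtip (at least 7.23-fold) and the Gsk3-binding gene Frat2 (2.06-fold), and 1 lower, the kinase Csnk1e (2.12-fold). Of 16 nuclear partners 1 was higher, the corepressor Tle4 (2.19-fold), and 3 lower, the corepressor Tle2 (3.48-fold) and the ATPases Ruvbl1 (2.30-fold) and Ruvbl2 (2.14-fold). Of 18 genes of the planar cell polarity and calcium branch 3 were higher and 3 lower. The cadherin Celsr2, at 9.02 on MCC and undetected on CCC (4.95) and PCC (4.63), was at least 8.81-fold higher on MCC than on PCC, and Nfatc4 was 4.85-fold and Nfatc3 2.39-fold higher. Vangl2, a core polarity protein, was 5.14-fold lower, at 6.10 on MCC, 7.34 on CCC and 8.46 on PCC. Protein kinase C alpha (Prkca) was at least 4.42-fold and Camk2d 3.31-fold lower. On CCC against PCC these 3 lists held 1 gene 2-fold higher, Wtip (at least 3.19-fold), and 2 lower, Vangl2 (2.18-fold) and the coactivator Bcl9l (2.15-fold). Of all genes tested in that pair, 6.34% were higher and 3.68% lower.

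On MCC against CCC, 4 of 6 genes of secretion and extracellular control were at least 2-fold lower, and the lowest were Notum (at least 14.2-fold), Tpbg (10.8-fold) and Wls (6.44-fold). Gpc3, a glypican of the cell surface, was at least 2.10-fold higher. Among all genes tested in that pair 18.2% were higher and 16.4% lower. Of 3 tested R-spondins and receptors only Ryk passed 2-fold, 2.24-fold lower. Among 14 cytoplasmic regulators Wtip (2.26-fold), Frat2 (2.22-fold) and Nkd2 (2.05-fold) were higher, and among 16 nuclear partners Bcl9l (3.80-fold) was higher, with 0 genes of either list lower. In the planar cell polarity and calcium branch 5 of 18 genes were higher, led by Celsr2 (at least 11.2-fold), Nfatc4 (3.26-fold) and Nfatc3 (2.54-fold). The 3 lower genes of that branch were Prkca (at least 3.52-fold), Camk2d (2.98-fold) and Vangl2 (2.36-fold). Without normalization, where the median of all genes was -0.76 in this pair, the counts turned to 0 higher and 4 lower for the cytoplasmic regulators, 0 and 5 for the nuclear partners, and 1 and 5 for the polarity and calcium branch, so these lists have no stable direction. The targets of beta-catenin were then 1 higher and 13 lower.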

How the data were processed

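The 3 arrays are Illumina mouse BeadChips hybridised with biotin-labelled cRNA, per the labels' protocols. The main values are deposited probe intensities, which the authors obtained with GenomeStudio, a tool named without version in the submitters' processing notes. Between 24.0% and 28.3% of the values per array are negative, which raw brightness cannot be. Each probe also has a deposited detection p-value, per the file headers. The authors' second deposited table of intensities is a straight line of the first on each array, with slopes of 1.53 (MCC), 0.865 (CCC) and 0.926 (PCC), a largest residual of 0.0131 and column medians of 35.1, 32.0 and 42.9. It is on a linear scale, not centred by gene, and runs in the same direction. The method behind those lines is not given.

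Background and normalization used neqc of limma 3.58.1 in R 4.3.3, with an offset of 16, quantile normalization and log2. Counts and figures were made in Python 3.11.15 (numpy 2.4.6, pandas 2.3.3, matplotlib 3.10.9). Of 25697 probes, 23978 have 1 gene symbol in the platform annotation, 0 several and 1719 none here. Symbols were updated by gene ID, with 23959 probes matched (GRCm38.p6, used for names, neighbours and promoters). Where several probes of a gene were detected, the one brightest on average over the arrays stood for it. Genes past 2-fold, as a difference or a bound, were counted in 3 pairs. The steps were tested on simulated data. Log2 changes set to 2 and -2 came back with medians of 1.95 and -1.88, and those set to 1 and -1 with 0.94 and -0.93. Of probes set to 1 and -1, 34.0% and 36.0% passed 2-fold. The changed probes were bright, and no difference in brightness or cell mix between arrays was simulated. Other settings of background, normalization, detection and probe choice were tried as alternatives.

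The members and lists were chosen with earlier results of these data known. All detected members are named, and of each list outside the rule up to 3 highest and 3 lowest genes past 2-fold per pair, except where the text says otherwise. The marker genes named singly were chosen after their values were seen. Precision is limited by the number of arrays, 1 for each group.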

Additional observations from a re-analysis of the deposited data

How the results depend on the processing

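The counts, medians and single values of the Wnt pathway genes were recomputed under 9 other settings of background, normalization, detection and probe choice. The pathway and marker lists outside the rule were recomputed under 5 of these, and the summed marker intensities and the place of CCC between the other arrays under none. No Wnt pathway gene past 2-fold changed sign under any of them. Of 14 genes past 2-fold on MCC against PCC 12 stayed past it under every setting that gave them a value, of 6 on CCC against PCC 4, and of 10 on MCC against CCC 4. For MCC against PCC, the count was 9 (1 higher) among only genes detected on all 3 arrays. The higher count was 7 with detection set at p under 0.05. There the dim genes Wnt4 (1.37 on the log2 scale), Wnt5a (1.14) and Fzd10 (1.04) passed 2-fold. Without that filter the higher count was 8, with Wnt5b (1.35) past 2-fold as well. The median was 0.18 under 75th percentile scaling, 0.02 with no filter and -1.04 among genes detected on all 3 arrays. For CCC against PCC, 3 genes were past 2-fold among those detected on all 3 arrays (0 higher, 3 lower). The higher count was 2 without normalization, with no filter and at the looser detection p, and the lower count was 3 without a background model, with an offset of 50, without normalization and in the authors' second table. For MCC against CCC, 6 genes were past 2-fold among those detected on all 3 arrays (2 higher). The higher count was 8 under 75th percentile scaling and 1 without normalization, and the lower count was 3 without a background model and with an offset of 50, and 10 without normalization. The median there was -0.52 without normalization and -0.24 among genes detected on all 3 arrays. Without normalization the median of all genes itself was -0.63 for MCC minus PCC, 0.15 for CCC minus PCC and -0.76 for MCC minus CCC, which moves all differences with it. Other causes were not tested. No paired analysis was possible because each group has 1 array. Dim genes, with levels near the lowest detected one on PCC (5.88), have uncertain folds.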
